A study of Mus musculus with 2 samples.

Results

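The genes described here are 10 members of the MHC class I presentation pathway, picked by name: H2-K1, H2-D1, B2m, Tap1, Tap2, Tapbp, Psmb8, Psmb9, Nlrc5 and H2-T23. All 10 are listed in both count tables, among 15644 genes in the tumor table and 17641 in the normal table. The study sorted CD45-/CD31+ cells by FACS and made 1 droplet library (10x Genomics) of tumor endothelial cells (TECs) and 1 of normal endothelial cells (NECs). The TECs came from pooled E0771 tumors, a mammary carcinoma line of C57BL/6 origin grown in the mammary fat pad, and the labels give no strain, age or treatment for their hosts. The NECs came from pooled normal mammary glands of C57BL/6 mice aged 6 to 8 weeks. Some labels of the normal library name TECs, and it was read as normal glands from its title and the deposited design. With 1 library per condition there was no replicate and no test, tumor and library cannot be told apart, and every interval below is at 95% and covers counting error only.

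Cells were kept with at least 200 genes, less than 10% mitochondrial UMIs (unique molecular identifiers, each a counted transcript) and no Ptprc (CD45) UMI. Of the kept cells, those with at least 1 UMI of Cdh5 plus Pecam1, and more of these than of Rhox5 plus Hmga2 plus Krt8, were called endothelial. This gave 262 of 475 kept cells in the tumor library (14 of them with a single Cdh5 or Pecam1 UMI) and 5409 of 6873 in the normal library (316 of them with a single one). Another 185 cells of the tumor library had a Rhox5, Hmga2 and Krt8 sum of at least 3 that was also the higher sum, and these are called cancer-like. In the normal library 887 cells met that second rule and were not used. The sort had been for CD31+ cells, and the 8 endothelial markers that the rule did not use had 0.964% of their TEC level in the cancer-like cells. Median depth was 3071 UMIs per cell in NECs, 16950 in TECs and 62538 in cancer-like cells, and 3 barcodes occurred in both libraries. The immune marker list was near 0 in each group, with a summed 9.43 counts per 1000000 UMIs (CPM) in NECs, 8.59 in TECs and 10.4 in cancer-like cells. Of its 8 genes, Ptprc was at 0 by the filter, and Cd3e was at 0 in TECs and cancer-like cells.

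MHC class I molecules show peptides from inside the cell to CD8+ T-cells and to natural killer cells. Proteasomes cut proteins to peptides, and the inducible subunits Psmb8, Psmb9 and Psmb10 can replace the constitutive Psmb5, Psmb6 and Psmb7. The Tap1-Tap2 transporter moves peptides into the endoplasmic reticulum, where tapasin (Tapbp) helps to load them on a heavy chain (H2-K1 or H2-D1) held by the light chain B2m. H2-T23 encodes Qa-1, a non-classical heavy chain that is read by the NKG2 receptors of natural killer and T-cells. Nlrc5 is the transactivator of class I genes, and interferons induce most of this set in many cell types, endothelium included.

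Of the 10 genes, 8 lie on chromosome 17 (GENCODE M21, GRCm38), B2m lies on chromosome 2 from 122147686 to 122153083 and Nlrc5 on chromosome 8. Psmb9, Tap1, Psmb8 and Tap2 lie side by side within 34335 bases. Promoter windows of 300 bases, from 250 before the start to 50 after it, were read from RefSeq (GRCm38.p6) for the 8 members that have one. The windows below are shown because H2-K1 and H2-T23 had the largest differences in the cancer-like cells and H2-D1 is the classical chain set beside H2-K1 there, and because Tap1, with the largest ratio between TECs and NECs, shares 275 bases of its window with Psmb9 on the other strand. Capitals mark matches on either strand to GGGNNTTCC (an NF-kB type site, in 5.82% of 32851 promoter windows), GAANNGAAA (an IRF motif pair, 7.52%), GAAANNGAA (the core of an interferon-stimulated response element or ISRE, 8.56%), TTCNNNGAA (a GAS element, 8.3%) and TGACG (a CRE type core as in class I X2 boxes, 20.8%).
H2-K1, chr17:34000298-34000597, minus strand: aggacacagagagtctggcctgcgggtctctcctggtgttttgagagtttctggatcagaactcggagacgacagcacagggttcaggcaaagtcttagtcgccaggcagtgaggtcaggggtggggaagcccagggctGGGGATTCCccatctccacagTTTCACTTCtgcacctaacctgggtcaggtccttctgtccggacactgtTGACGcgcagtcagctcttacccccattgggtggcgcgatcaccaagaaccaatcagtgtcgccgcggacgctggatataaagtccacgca
H2-D1, chr17:35262844-35263143, plus strand: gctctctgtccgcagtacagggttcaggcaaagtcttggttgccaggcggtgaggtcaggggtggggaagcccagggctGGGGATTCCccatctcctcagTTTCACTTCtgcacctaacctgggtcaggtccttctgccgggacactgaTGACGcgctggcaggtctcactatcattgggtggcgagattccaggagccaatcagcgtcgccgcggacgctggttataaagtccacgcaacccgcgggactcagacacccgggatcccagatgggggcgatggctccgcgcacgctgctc
H2-T23, chr17:36032652-36032951, minus strand: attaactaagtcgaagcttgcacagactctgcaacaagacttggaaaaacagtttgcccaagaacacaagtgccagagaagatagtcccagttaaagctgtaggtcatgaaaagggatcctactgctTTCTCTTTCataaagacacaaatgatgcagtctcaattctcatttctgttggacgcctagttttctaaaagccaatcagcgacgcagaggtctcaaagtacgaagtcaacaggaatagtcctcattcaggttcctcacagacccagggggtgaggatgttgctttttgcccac
B2m, chr2:122147437-122147736, plus strand: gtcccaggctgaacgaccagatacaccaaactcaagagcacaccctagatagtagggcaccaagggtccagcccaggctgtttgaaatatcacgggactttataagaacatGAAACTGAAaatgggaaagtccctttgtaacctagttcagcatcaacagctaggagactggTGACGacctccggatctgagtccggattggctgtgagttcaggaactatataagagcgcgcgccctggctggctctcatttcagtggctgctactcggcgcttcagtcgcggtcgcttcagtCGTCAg
Tap1, chr17:34187306-34187605, plus strand: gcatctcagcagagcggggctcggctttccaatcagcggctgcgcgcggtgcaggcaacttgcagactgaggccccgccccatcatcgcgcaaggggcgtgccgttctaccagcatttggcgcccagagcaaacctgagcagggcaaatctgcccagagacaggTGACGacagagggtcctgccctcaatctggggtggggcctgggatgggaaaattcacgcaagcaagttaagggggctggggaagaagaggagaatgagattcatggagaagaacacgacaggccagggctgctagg
In H2-K1 and H2-D1 the NF-kB type match, the IRF pair and the CRE type core followed each other in this order with the same spacing, 21 and 49 bases from start to start, and 71 of the 75 bases from the first capital on were the same. The H2-T23 window held the ISRE core alone and B2m the ISRE core with 2 CRE type cores. Tap1 held a single CRE type core, which is the one match of the Psmb9 window too. Psmb8 (not shown) held a single GAS match, 97 bases before its start. A match of letters is not a bound site, and no binding was measured here.

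TECs had a higher level than NECs of all 10 members. The level is the sum of a gene's UMIs over the cells of a group as CPM, and 6 of the 10 were at least 2-fold higher (H2-K1, H2-D1, Tap1, Psmb8, Psmb9 and Nlrc5), against 10.2% of the 8257 genes with a mean of at least 10 CPM in the comparison. None of the 10 was at least 2-fold lower, against 17.6% of those genes. The median log2 ratio of the members was 1.10, and that of all genes compared was -0.09.

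The classical heavy chains were at 2212 CPM (H2-K1, interval 2192 to 2233) and 2740 CPM (H2-D1, 2718 to 2763) in NECs. In TECs H2-K1 was at 5044 CPM (4979 to 5108), which is 2.28-fold higher (2.24 to 2.32). H2-D1 was at 5933 CPM (5864 to 6004) in TECs, or 2.17-fold higher (2.13 to 2.20). The light chain B2m was 1.61-fold higher (1.59 to 1.64), from 3111 CPM in NECs to 5013 CPM in TECs. The share of B2m among the UMIs of B2m, H2-K1 and H2-D1 was 38.6% (38.3 to 38.8%) in NECs and 31.4% (31.0 to 31.7%) in TECs.

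The largest ratio of the 10 was that of the transporter subunit Tap1, at 89.6 CPM (85.6 to 93.9) in NECs and 395 CPM (377 to 414) in TECs, 4.41-fold higher (4.13 to 4.71). Its partner Tap2 was 1.40-fold higher (1.31 to 1.50), from 163 to 229 CPM. Tap1 made up 35.4% (34.1 to 36.8%) of the UMIs of the pair in NECs and 63.3% (61.5 to 65.0%) in TECs. Tapbp was 1.47-fold higher (1.39 to 1.55), from 241 to 354 CPM.

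Of the inducible proteasome subunits, both members were higher by nearly the same factor in summed UMIs, Psmb8 from 390 to 833 CPM (2.14-fold, 2.06 to 2.22) and Psmb9 from 193 to 413 CPM (2.14-fold, 2.03 to 2.26). Both fell below 2-fold as a mean over cells, and Psmb9 also with cells thinned to equal depth. The constitutive partners were higher as well, Psmb5 by 1.88-fold (1.77 to 2.00) and Psmb6 by 1.64-fold (1.55 to 1.74). The share of Psmb8 in the sum of Psmb8 and Psmb5 was close, 69.5% (68.7 to 70.4%) in NECs and 72.2% (71.0 to 73.4%) in TECs. Psmb9 made up 49.3% (48.2 to 50.4%) of Psmb9 plus Psmb6 in NECs and 56.0% (54.3 to 57.6%) in TECs. Psmb10, the inducible subunit that is no member, was 1.46-fold higher (1.37 to 1.54), from 227 to 331 CPM. Its share with Psmb7 was 62.3% (61.2 to 63.4%) in NECs and 60.6% (58.7 to 62.5%) in TECs, with overlapping intervals.

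Nlrc5 had few UMIs, 265 in NECs and 152 in TECs, and its level was 13.2 CPM (11.6 to 14.8) and 32.6 CPM (27.7 to 38.3). This is 2.48-fold higher in TECs (2.02 to 3.04). The non-classical chain H2-T23 was at 339 CPM (331 to 347) in NECs and 469 CPM (450 to 489) in TECs, 1.38-fold higher (1.32 to 1.45). The H2-T23 difference turned around when the IFN-like TEC cluster described below was left out, to a log2 ratio of -0.18. Tap2 and Tapbp then came close to their NEC level, with log2 ratios of 0.05 and 0.16. Without that cluster, the members at least 2-fold higher were H2-K1, Tap1, Psmb9 and Nlrc5. The share of all genes is not given for this setting, so their number is a description only.

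**Figure D1:**
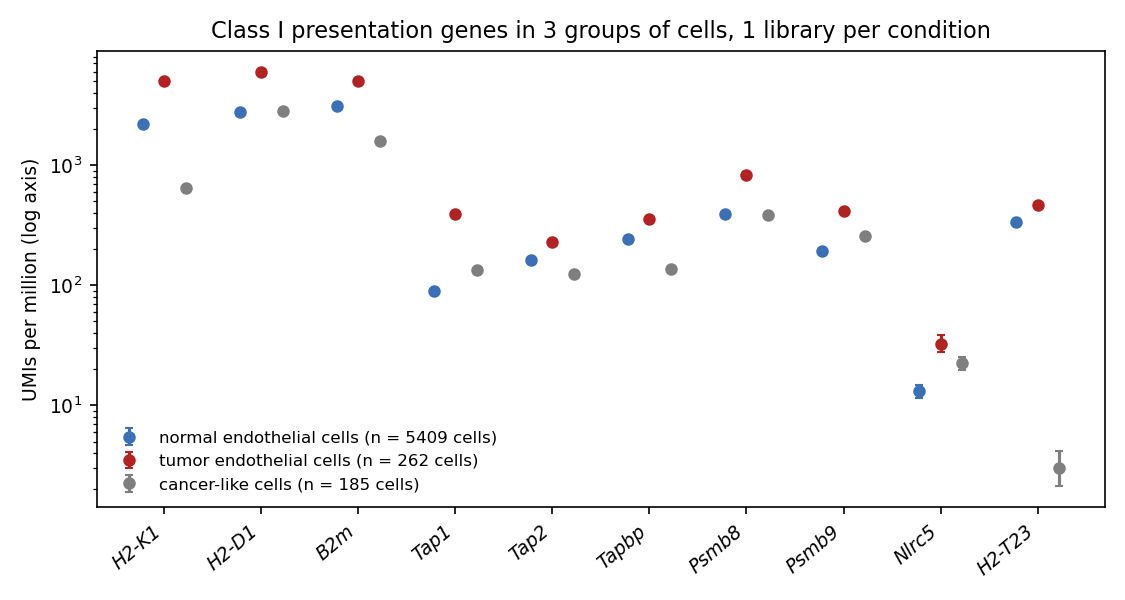
Level of each member (counts per 1000000 UMIs, log axis) in normal endothelial, tumor endothelial and cancer-like cells, summed over the cells of each group, with Poisson 95% intervals for counting error that are often smaller than the points. Tumor endothelial cells have the highest point for all 10 genes, and the H2-T23 point of the cancer-like cells, 3.02 CPM, lies far below all others.

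The difference was also seen per cell. After each cell had been thinned to 1900 UMIs (leaving 4273 NECs, 240 TECs and 184 cancer-like cells), the median sum of the 10 members was 18 UMIs per cell in NECs and 36 in TECs. From the 10th to the 90th percentile it ran from 9 to 29 in NECs and from 17.9 to 54.1 in TECs, so most TECs lay above the median NEC while the groups overlapped. Tap1 was detected in 15.7% of thinned NECs (14.6 to 16.8%) and 45.4% of thinned TECs (39.0 to 51.9%), and before thinning in 25.2% and 81.7%. H2-T23 was detected in 45.2% (43.7 to 46.7%) and 52.9% (46.4 to 59.4%), so its intervals overlapped at equal depth, and before thinning in 58.2% and 84.7%.

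Markers of the interferon response were higher in TECs too. The summed level of a list of 18 interferon-stimulated genes was 3855 CPM in NECs, 10165 CPM in TECs and 2058 CPM in cancer-like cells, with none of the 18 at 0 in any of them, and its part in the result was not tested. Among the regulators of class I genes, Irf8 was 4.91-fold higher in TECs (4.45 to 5.43) and the interferon-gamma receptor chain Ifngr2 3.21-fold (2.86 to 3.60). Irf1, which binds ISREs, was instead at 611 CPM in NECs and 133 CPM in TECs, with a log2 ratio of -2.20. Irf2 and the signaling inhibitor Socs1 were also lower in TECs, with log2 ratios of -1.14 and -1.53.

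Other class I chains were higher in TECs as well. Of 7 that had enough UMIs to be compared, all 7 were above their NEC level and 3 were at least 2-fold higher, H2-Q6, H2-Q7 and H2-T22. H2-Q7 was at 330 CPM in NECs and 1530 CPM in TECs, 4.64-fold higher (4.48 to 4.79). H2-T22 was 4.43-fold higher (4.20 to 4.66). Reads of these near-identical chains can be split between copies by the counting, above all those of H2-Q6 and H2-Q7, so single values are uncertain. Of the 6 other proteasome genes none was at least 2-fold apart, and of 5 loading and trimming genes 1 was, the chaperone calreticulin (Calr) at 2.07-fold (2.00 to 2.14).

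Cancer-like cells of the same library had a lower level than TECs of all 10 members, but not to the same extent. This level is a share of a group's UMIs and not an amount per cell, and cancer-like cells were the deeper (median 62538 against 16950 UMIs). In UMIs, H2-D1 had 33625 in 185 cancer-like cells and 27631 in 262 TECs, while H2-K1 had 7637 and 23487. Whether the depth reflects more RNA per cell was not tested. Of the 10, 7 were at least 2-fold lower (all but Tap2, Psmb9 and Nlrc5; without mitochondrial and ribosomal UMIs also not H2-D1 and Psmb8), against 19.1% of the 7969 genes compared, and the median log2 ratio was -1.26 against 0.04 for all genes. Against NECs only H2-K1 and H2-T23 were at least 2-fold lower, where 28.2% of 8509 genes were.

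The 2 classical chains parted in these cells. H2-D1 was at 2824 CPM (2794 to 2854), 47.6% of its TEC level (46.8 to 48.4%) and 1.03-fold its level in NECs (1.02 to 1.04). H2-K1 was at 641 CPM (627 to 656), 12.7% of its TEC level (12.4 to 13.0%). H2-K1 made up 18.5% (18.1 to 18.9%) of the UMIs of the pair in cancer-like cells, 45.9% (45.5 to 46.4%) in TECs and 44.7% (44.4 to 45.0%) in NECs. Across the 15 normal endothelial clusters described below this share ran from 39.9% to 56.4%, so that the cancer-like value lay below every one of them.

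A low H2-K1 share was found in nearly every cancer-like cell. In the 171 of them with at least 20 UMIs of the pair, the H2-K1 share had a median of 18.2% and ran from 12.1% to 24.4% between the 10th and the 90th percentile, and in 170 it was below 50%, as it was in 175 of 237 TECs and 1197 of 1855 NECs. In these TECs the median was 45.3%, and these percentiles were 34.5% and 54.3%. After thinning, H2-K1 had a median of 1 UMI per cancer-like cell, 4 per NEC and 9 per TEC, while H2-D1 had 5, 5 and 11.

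**Figure D2:**
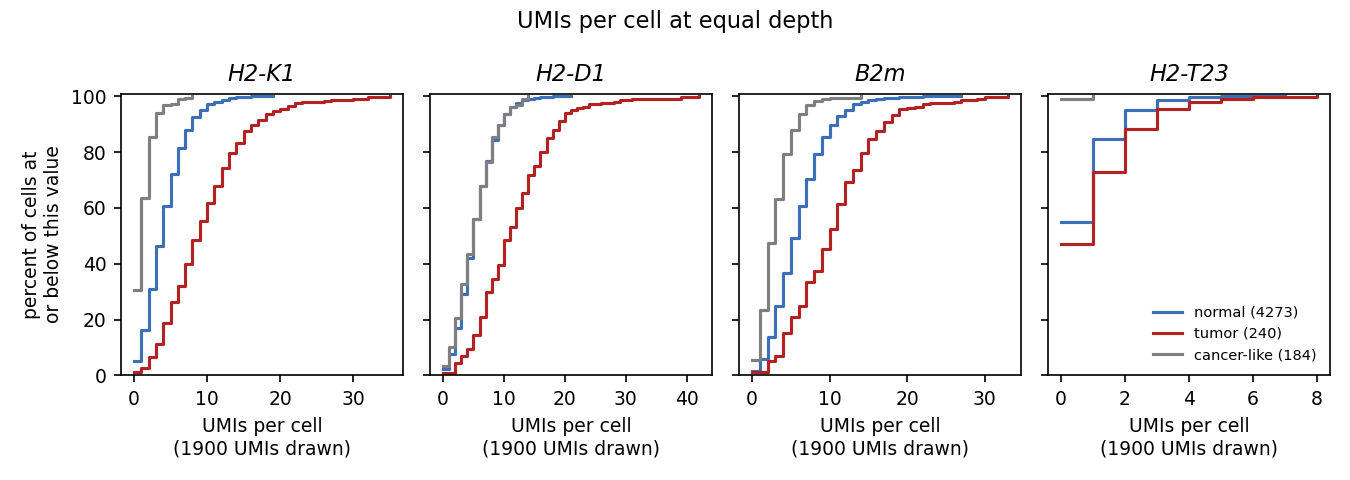
Cumulative share of cells (percent, vertical axis) at or below a number of UMIs per cell (horizontal axis) for 4 members after each cell was thinned to 1900 UMIs; cell numbers are in the legend. The cancer-like curve lies on the normal endothelial curve for H2-D1, to the left of it for H2-K1 and B2m, and near 100% at 0 UMIs for H2-T23.

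H2-T23 was nearly absent from the cancer-like cells. It had 36 UMIs in 11908383, or 3.02 CPM (2.12 to 4.19), which is 0.645% of its TEC level (0.450 to 0.895%), and 18 of 185 cells held at least 1. One of the 18 held 15 of the 36 UMIs. The endothelial markers outside the rule give a level to compare with. Whether their UMIs came from free RNA in droplets, from doublets or from the cells themselves was not tested. These 8 markers had from 0% (Erg) to 1.82% (Egfl7) of their TEC level, with a median of 0.372%, so that H2-T23 was within their range. Egfl7 was found in 132 of the 185 cells, and the next highest marker, Tie1, was at 0.730%. H2-T23 was in 1.09% of thinned cancer-like cells (0.132 to 3.87%).

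Further chains of the same region were as low. H2-Q4 had 0.602% of its TEC level (0.396 to 0.879%), H2-Q6 0.366% (0.239 to 0.538%) and H2-Q7 0.324% (0.246 to 0.418%), all within the range of the endothelial markers. H2-T22, the next of these genes on the chromosome beyond H2-T23, had 36.2% (34.3 to 38.1%), and H2-M3, which presents formylated peptides, 46.1% (40.6 to 52.5%). In the order of chromosome 17, H2-K1 (from 33996017) and H2-D1 (from 35262730) came first. H2-Q4 (from 35379617), H2-Q6 (from 35424850), H2-Q7 (from 35439155) and H2-T23 (from 36029773) followed, within the range of the endothelial markers. H2-T22 (from 36037128) and H2-M3 (from 37270220) came next, well above that range.

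The H2-K1 value was far above the range of the endothelial markers and differed little with endothelial UMIs. For this split 9 endothelial markers were read, all but Egfl7, and Cdh5 and Pecam1 of the rule are among them. In the 94 cancer-like cells with no UMI of these 9, H2-K1 was at 632 CPM (609 to 655), and in the other 91 at 647 CPM (629 to 666). H2-T23 was at 2.21 CPM (1.06 to 4.06) and 3.53 CPM (2.30 to 5.17). These 2 sets differed in depth, with a median of 40554 and 89972 UMIs.

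**Figure D3:**
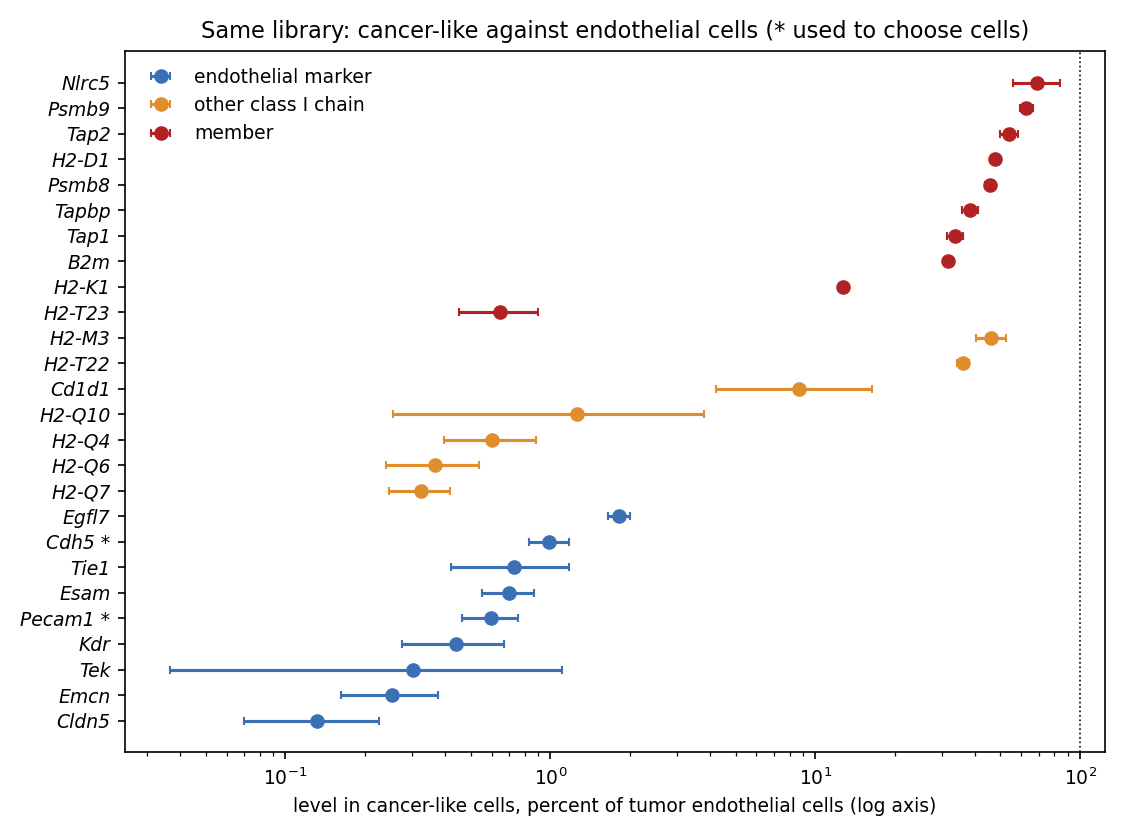
Level in cancer-like cells as a percent of the level in tumor endothelial cells of the same library (log axis) for members, other class I chains and endothelial markers with at least 50 UMIs in tumor endothelial cells, with 95% intervals for counting error. H2-T23, H2-Q4, H2-Q6 and H2-Q7 lie among the endothelial markers below 2%, and the other 9 members lie between 12.7% and 68.4%; Erg, at 0, cannot be drawn.

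The remaining members kept from 31.7% to 68.4% of their TEC level. B2m was at 1589 CPM (31.7%, 31.1 to 32.3%), and its share among B2m, H2-K1 and H2-D1 was 31.4% (31.1 to 31.8%), with overlapping intervals in TECs. Tap1 was at 133 CPM (33.7%), Tapbp at 136 CPM (38.3%) and Tap2 at 124 CPM (53.9%). Psmb8 was at 380 CPM (45.7%), Psmb9 at 258 CPM (62.6%) and Nlrc5 at 22.3 CPM (68.4%, 55.9 to 84.1%). Against NECs, cancer-like cells had 1.48-fold more Tap1 (1.39 to 1.59), 1.34-fold more Psmb9 (1.28 to 1.41) and 1.70-fold more Nlrc5 (1.43 to 2.02).

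The proteasome of the cancer-like cells held a smaller inducible share of subunit RNA than that of the TECs. Psmb8 was 51.5% of Psmb8 plus Psmb5 (50.4 to 52.5%), Psmb9 40.5% of Psmb9 plus Psmb6 (39.4 to 41.7%) and Psmb10 31.9% of Psmb10 plus Psmb7 (30.7 to 33.2%). In TECs these shares were 72.2%, 56.0% and 60.6% (58.7 to 62.5%). The constitutive subunits were 1.12-fold (Psmb5, 1.05 to 1.19) to 1.38-fold (Psmb7, 1.28 to 1.48) their TEC level in cancer-like cells, while Psmb10 was at 0.420-fold (0.392 to 0.450).

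The regulators were lower in cancer-like cells too, 8 of 13 by at least 2-fold (19.1% of all genes compared), and none was higher by that much (14.9% of all genes). The kinase Jak2 was at 4.79 CPM, with 59.7 CPM in TECs. All 4 interferon receptor chains compared were at least 2-fold lower, with log2 ratios from -2.05 (Ifngr1) to -2.32 (Ifngr2). Irf8 had a log2 ratio of -3.53 and Stat2 of -1.88. Rfxap, a subunit of the RFX complex that binds class I promoters, was 1.70-fold higher (1.41 to 2.05).

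**Figure D4:**
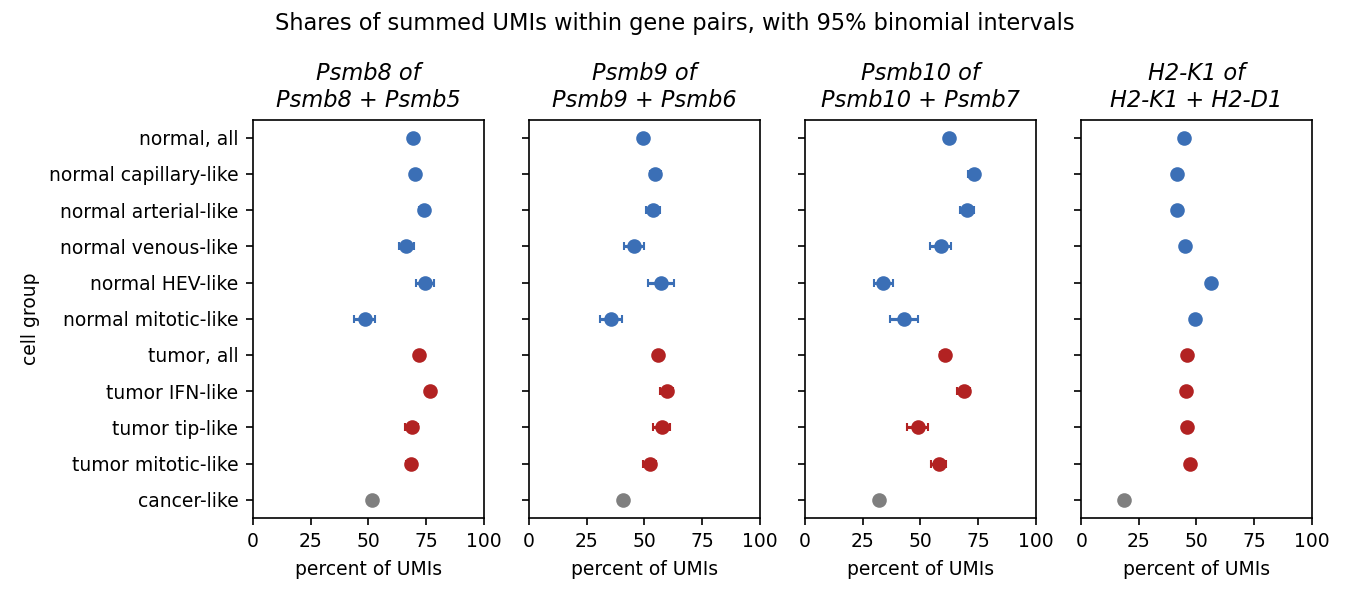
Share (percent, horizontal axes) of the first gene in the summed UMIs of a pair, for 3 pairs of inducible and constitutive proteasome subunits and for H2-K1 with H2-D1, by cell group, with Clopper-Pearson 95% intervals. The cancer-like point is the lowest for H2-K1, at 18.5%, and is joined by normal mitotic-like cells at the low end for the proteasome pairs and by HEV-like cells for Psmb10.

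The members also varied within the normal library. The salivary marker list was at 3314 CPM in all NECs, and whether each cluster came from mammary gland was not tested. NECs were clustered without the members and the other pathway genes, and clusters were named from marker lists, which gave 17 clusters. A pericyte-like cluster of 178 cells and a shallow salivary-like one of 110 cells (median 817 UMIs) were set apart here. Their cells stayed in the levels and ratios of NECs as a whole. The other 15 clusters, taken as endothelial, were compared. Among these the highest level was from 1.74-fold (H2-D1) to 4.51-fold (H2-T23 and Nlrc5) the lowest, with Nlrc5 resting on few UMIs. The TEC level was above all 15 clusters for 7 members, all but B2m, Tapbp and H2-T23, which was so for 16.3% of 8257 genes. For 5 of these (H2-K1, H2-D1, Tap1, Psmb8 and Psmb9) the interval of TECs also lay above that of the highest cluster, against 5.47% of the genes.

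Capillary-like (1449 cells in 2 clusters), arterial-like (716 in 2) and venous-like NECs (367 in 2) were close to each other. The median log2 ratio of the members was 0.05 for arterial-like over capillary-like and -0.27 for venous-like over capillary-like, with -0.04 and -0.13 for all genes. No member was at least 2-fold apart in either comparison, where 7.24% of genes were higher and 5.27% lower in arterial-like cells, and 6.77% higher and 6.71% lower in venous-like cells. Tapbp was at 341 CPM (318 to 365) in arterial-like, 242 CPM (226 to 258) in capillary-like and 202 CPM (182 to 224) in venous-like cells. H2-T23 had another order, with 434 CPM (404 to 465) in venous-like, 313 CPM (295 to 332) in capillary-like and 276 CPM (256 to 298) in arterial-like cells, where the last pair differed least.

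High endothelial venules are the vessels through which lymphocytes enter lymph nodes, and a cluster of 97 NECs, with Glycam1 as its top gene, was HEV-like. These cells had the highest normal level of H2-K1, 3981 CPM (3850 to 4116), of B2m, 5222 CPM (5072 to 5375), and of Tap1, 137 CPM (113 to 164). The Tap1 interval overlapped that of a cluster of 618 cells described below, at 135 CPM (121 to 150). H2-K1 was 2.01-fold higher than in capillary-like cells (1.93 to 2.10) and the one member at least 2-fold higher, where 7.28% of genes were. H2-D1 was 1.10-fold higher (1.06 to 1.15), so that H2-K1 made up 56.4% (55.2 to 57.7%) of the pair, the highest share of the 15 clusters. B2m of HEV-like cells was above that of TECs as a whole (5013 CPM), with overlapping intervals.

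HEV-like cells also held other class I chains. H2-Q7 was at 835 CPM (775 to 897) with 249 CPM in capillary-like cells, 3.36-fold higher (3.04 to 3.71). H2-M2, which is listed in the normal table only, had 21 UMIs in all NECs and 19 of these were in the 97 HEV-like cells. The interferon list was at 2566 CPM in HEV-like and 4115 CPM in capillary-like cells, the reverse of the order of H2-K1. The median log2 ratio of all genes was -0.42 in this comparison. Without Glycam1 UMIs in the totals, an alternative added after seeing the data, the log2 ratio of H2-K1 was 1.25 and that of B2m 1.02.

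Clusters without a name from the lists had some of the highest levels. A cluster of 483 cells led by Meis2, Plscr2 and Tbxa2r was among the 3 highest of the 15 clusters for 8 of the 10 members (24.6% of 8341 genes). It had the highest Psmb8 (587 CPM) and H2-T23 (569 CPM), with intervals that overlapped those of the next cluster. Its interferon list was at 3929 CPM, near the 3855 CPM of all NECs. A cluster of 618 cells led by Ifi207, Ier3 and Foxf1, with the highest interferon list of the normal clusters at 6364 CPM, was among the 3 highest for 6 members (13.9% of genes). A high interferon list did not always go with high members. In a cluster of 385 cells led by Car8 and Hspa1a the list was at 5635 CPM. The median rank of that cluster over the members was 13 of 15, counted from the highest. The larger arterial-like cluster (479 cells) had the highest H2-D1, Tap2, Tapbp and Psmb9 of the 15, as for 8.19% of genes. Its intervals for Tap2 and Psmb9 overlapped those of the next cluster.

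Mitotic-like NECs (102 cells) had the lowest level of 5 members, H2-D1, Tap2, Tapbp, Psmb8 and H2-T23, against 5.68% of genes. For all of these but H2-T23 the interval overlapped that of the next lowest cluster. These cells also held markers of other cell types, with the salivary list at 10688 CPM (3314 CPM in all NECs), the epithelial list at 1847 CPM (222 CPM in all NECs) and the fibroblast list at 326 CPM (109 CPM in all NECs), and their part in the levels was not tested. Psmb8 was at 235 CPM (205 to 267) and its share with Psmb5 was 48.5% (43.9 to 53.1%), the lowest of the 15 clusters. H2-T23 was at 126 CPM (105 to 151), with 313 CPM in capillary-like cells. Tap1, at 93.8 CPM (75.4 to 115), was instead close to its level in all NECs.

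**Figure D5:**
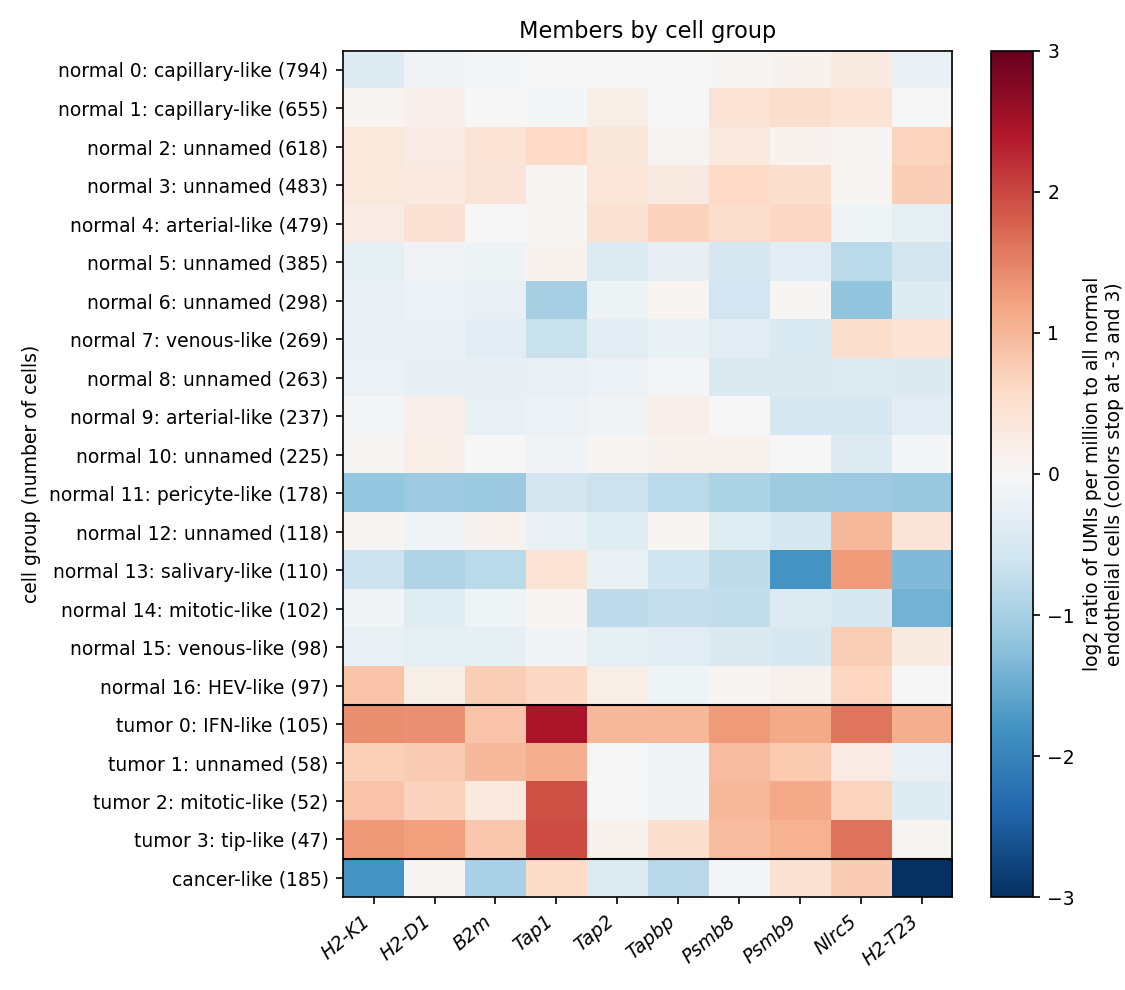
Log2 ratio of each member's level to its level in all normal endothelial cells (color, limited to -3 and 3), for 17 normal clusters, 4 tumor clusters and the cancer-like cells, with cell numbers in the labels. The 4 tumor rows are above 0 for H2-K1, H2-D1, B2m, Tap1, Psmb8, Psmb9 and Nlrc5. They lie on both sides of 0 for Tap2, Tapbp and H2-T23, and the lowest cell is H2-T23 in the cancer-like row.

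Within the tumor, 105 of the TECs were IFN-like by their cluster, 52 mitotic-like and 47 tip-like, while 58 shallow cells (median 2209 UMIs) had no name. The size of the IFN-like cluster depended on the clustering, with 27 cells at a resolution of 1.2 and no such cluster with 10 principal components. The level in every one of these 4 clusters was above that of all 15 normal clusters for H2-D1, Tap1, Psmb8 and Psmb9, 4 of the 10 members, against 6.65% of all genes. Among the 3 named clusters the IFN-like one had the highest level of 8 members, the exceptions being Psmb9 and Nlrc5, where 32.3% of 7725 genes were highest in it. It was named from interferon-stimulated genes, so its levels are given as a description. H2-T23 was at 724 CPM (686 to 764) in IFN-like, 360 CPM (324 to 398) in tip-like and 261 CPM (236 to 287) in mitotic-like TECs.

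Tip cells lead new vessel sprouts, and in tip-like TECs the chains H2-K1, H2-D1 and B2m were 0.933-fold, 0.911-fold and 0.959-fold their IFN-like level. Tap2 was at 0.558-fold (0.471 to 0.659) and H2-T23 at 0.497-fold (0.442 to 0.557). Nlrc5 was at 40.4 CPM (29.1 to 54.6) in tip-like and 39.8 CPM (31.3 to 50.0) in IFN-like cells, equal within counting error.

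Mitotic-like TECs had less of 9 members than IFN-like TECs, with a median log2 ratio of -0.62 against -0.03 for all genes. Tapbp (-1.08) and H2-T23 (-1.47) were the 2 members at least 2-fold lower, where 6.7% of 7706 genes were. Tapbp was no longer so at resolutions of 0.4 (-0.85) and 1.2 (-0.79) and with classes set by own markers (-0.60), while Tap2 (-0.97) became so with thinned cells (-1.33) and Nlrc5 (-0.92) at a resolution of 1.2 (-1.13). Psmb9 was equal within counting error, at 424 CPM (392 to 457) and 422 CPM (393 to 453). The interferon list was at 7109 CPM in mitotic-like, 7786 CPM in tip-like and 14328 CPM in IFN-like TECs, and its part in these differences was not tested.

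The mitotic-like cells of both libraries were also compared. Mitotic-like TECs had a higher level than mitotic-like NECs of all 10 members, and 6 were at least 2-fold higher, where 7.37% of 8328 genes were, with a median log2 ratio of 1.05. These 6 were H2-D1, Tap1, Psmb8, Psmb9, Nlrc5 and H2-T23. Psmb8 was 3.30-fold higher (2.86 to 3.82), Psmb9 2.92-fold (2.43 to 3.54) and Tap1 3.60-fold (2.88 to 4.56). H2-T23 was 2.07-fold higher here (1.68 to 2.56), with 126 CPM in the normal and 261 CPM in the tumor cells. The normal mitotic-like cells were the shallower, with a median of 7775 UMIs against 30763. The epithelial list was at 1847 CPM in the normal and 0.638 CPM in the tumor cells (5 of its 8 genes are in the tumor table), the fibroblast list at 326 and 6.38 CPM, and the part of these and of the salivary list given above was not tested.

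Over the 22 cell groups (17 normal clusters, 4 tumor clusters and the cancer-like cells), the log2 level of H2-K1 followed the mean of the members most closely (r = 0.94) and that of Nlrc5 least (r = 0.54), with 0.60 for H2-T23. This is a description, since each member is part of that mean, and the groups share 2 libraries and differ in depth. Outside the pathway lists, the genes most like the mean were Inpp5d (r = 0.86), Igfbp3 (0.84), Lgals9 (0.83) and Phf11d (0.83), followed by Creb3, Ptpn18, Gbp2, Trafd1, Oasl1 and Ifit3b (0.81 to 0.79). Igfbp3 ranged from 7.81 to 3659 CPM and Gbp2, an interferon-inducible GTPase, from 33.7 to 652 CPM. Both orders differed over the 15 normal endothelial clusters alone. There Psmb8 (0.90) and Tap2 (0.89) were the closest members, with 0.76 for H2-K1, and Stx5a (0.77), Zmynd11 (0.76) and Mycbp2 (0.76) led the other genes. Among the other class I chains H2-Q7 (0.83) and H2-T22 (0.82) were the closest, over all 22 groups. Of the regulators, Ifngr2 (0.64), Ifnar2 (0.60) and Ifnar1 (0.51), among others, went with the mean. Irf1 (-0.25), Rfxap (-0.24), Socs1 (-0.17) and Irf2 (-0.12) ran weakly the other way.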

How the data were processed

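Both deposited tables held raw UMI counts per gene and cell barcode, made by the authors from 10x Genomics libraries. The submitters' processing notes name Cell Ranger, Seurat and the build mm10. The tumor table held 704 barcodes (510 to 183550 UMIs, median 14106.5) and the normal one 9047 barcodes (500 to 327449, median 2973). Filters, endothelial and cancer-like rules are given in the results. Cells were clustered with Seurat 5.3.0 in R 4.3.3 (4000 variable genes, 20 principal components, resolution 0.8) without the members and other pathway genes, and named from marker lists. Doublets were not removed in the main analysis. Counts were summed per group and scaled to 1000000 UMIs (Python 3.11.15, numpy 2.4.6, scipy 1.17.1, pandas 2.3.3, matplotlib 3.10.9). Intervals at 95% were exact: Poisson for levels, Clopper-Pearson for shares, and conditional binomial for ratios. PCR and capture errors are outside them. Ratios were compared for genes with a mean of at least 10 CPM over the groups, with a fold of 2 taken as the limit and a pseudocount of 1 CPM for likeness between genes. With 1 library per condition no test was run. Named genes were the 10 members, a list of 40 other pathway genes, the cell type markers and the 10 genes most like the members' mean. Genes that lead a cluster were named after their values were seen. Members and lists were chosen with earlier results of these data known. Scripts were tested on simulated data. One item of the pathway list is not reported here.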

Additional observations from a re-analysis of the deposited data

Results flagged for a closer look

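H2-D1 gave a signal in cells that no comparison used. In the 28 kept cells of the tumor library that were neither endothelial nor cancer-like it was at 2067 CPM (1678 to 2519, 98 UMIs), and in the 577 such cells of the normal library at 562 CPM (536 to 590). H2-K1 was at 1076 CPM (801 to 1414) and 492 CPM in the same cells. H2-T23 had 1 UMI in the 28 cells.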

How the results depend on the processing

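TEC levels of the members stayed above NEC levels in the median under all 12 alternatives, with 4 to 6 members at least 2-fold higher. Their median log2 ratio, 1.10 in the results, was 0.94 as a mean over cells, 0.90 with thinned cells, 1.19 with median-of-ratios scaling, 1.17 without mitochondrial and ribosomal UMIs and 0.94 without the IFN-like TEC cluster. Without that cluster H2-T23 turned to -0.18, Tap2 was at 0.05 and Tapbp at 0.16. Psmb8 and Psmb9 fell below 2-fold as a mean over cells, and Psmb9 also with thinned cells. Without a filter on low levels, 12.1% of all genes were at least 2-fold higher in TECs. The cancer-like median was -1.06 without mitochondrial and ribosomal UMIs, and 5 to 7 members were at least 2-fold lower under 11 alternatives, with H2-D1 and Psmb8 the members that no longer were at 5. H2-K1 ran there from -3.02 to -2.78 and H2-T23 from -8.14 to -6.52. With vessel classes set by own markers in place of clusters, the venous-like median was -0.11 and B2m turned to 0.067. The mitotic-like over IFN-like median was -0.47 at a resolution of 1.2, and with 10 principal components no IFN-like cluster gave a value. The arterial-like median stayed from 0.03 to 0.19 under 8 alternatives. Of 443 alternative values of single genes, 310 stayed within their interval, 131 moved and 2 turned. The doubtful clusters were the pericyte-like and salivary-like NECs and the TECs without a name. Without them 5121 NECs and 204 TECs were left, and the same 6 members were at least 2-fold higher. Leaving out these clusters and Glycam1 were alternatives chosen after seeing the data. The cause of these shifts was not tested. Counts of members under the alternatives stand without a matching share of all genes, so they are a description only. No paired analysis was possible because each condition had 1 library.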
